A study of Drosophila melanogaster with 7 samples.

Results

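Cells of Drosophila midgut tumors were divided by the share of their RNA that came from the mitochondrial genome. Single-cell RNA-seq libraries had been made from 6 tumors taken one by one (Tind1 to Tind6) and from 6 tumors pooled into 1 library (Tgrp). Of 9914 deposited cells, 9358 were left after keeping those with 100 to 2000 detected genes and dropping from Tind5 the barcodes also found in Tind4, and 1459 of these (15.6%) carried over 15% of their unique molecular identifiers (UMIs, one per captured transcript) in mitochondrially encoded genes. They are called mitochondrial-rich here, and the 7899 cells at or below 15% in the same libraries mitochondrial-poor. Both classes came from the same flies, so they share genotype, treatment and age: 1 parent of the cross carried yw,HS-flp and HS-mflp5 with the driver and reporter esg-gal4,UAS-flybow and with FRT82B,Tub-Gal80, the other carried yw,HS-flp with the oncogene UAS-RasV12 and the mutant arm FRT82B,Apc2N175K,ApcQ8, clones were induced by 2 h at 37°C in young adults, and flies with GFP visible through the abdomen were dissected at least 21 days later. Whole tumors were dissociated with trypsin. In this model Tub-Gal80 blocks Gal4 except in recombined cells that have lost it. There esg-gal4 drives RasV12 and the fluorescent reporters, in intestinal stem cells and enteroblasts. The same recombined cells are homozygous for the Apc2 and Apc mutations.

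The fly mitochondrial genome encodes 13 subunits of the respiratory chain, 2 ribosomal RNAs and 22 transfer RNAs, while the other subunits of complexes I, III, IV and V, all of complex II and the proteins of the mitochondrial ribosome are encoded in the nucleus. A high mitochondrial share in a droplet is widely used to set cells aside, since cytoplasmic RNA can leak from a broken membrane while mitochondria stay inside, and it can also mark cells that hold many mitochondria. The nuclear transcripts of the same cells were therefore compared between the classes, each as a share of the UMIs outside the mitochondrial genes, to see which genes and pathways differed.

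The libraries held between 289733 (Tind3) and 6354105 (Tgrp) UMIs. Tind4 and Tind5 had 116 barcodes in common, against at most 3 for any other pair, and these barcodes were dropped from Tind5. Of the remaining cells left out, 197 had too few genes and 243 too many. UMIs of each class were summed within each library, which gave 7 sums per class of 70313 to 4725739 non-mitochondrial UMIs, and the classes were compared within libraries with edgeR's quasi-likelihood test, with p-values adjusted over all genes tested. Levels are given as counts per 1000000 non-mitochondrial UMIs (CPM), scaled by TMM, and since cells were summed, a higher level per cell and more cells with the transcript cannot be told apart. The 7 libraries are separate samples by their labels. Since the classes were compared within libraries, the p-values set their difference against how much it varied from library to library.

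The cells were chosen by their mitochondrial share, so the following values describe the classes and were not tested. Mitochondrial-rich cells made up from 6.69% (95% exact binomial interval 5.68 to 7.81, counting error only) of the cells of Tind1 to 36.8% (32.5 to 41.3) of those of Tind6, and 22.5% ± 12.1 of the cells of an individual tumor (SD, n = 6). They differed from the mitochondrial-poor cells in both terms of the share. The median mitochondrial-rich cell held 1.85 to 4.51 times as many mitochondrial UMIs as the median mitochondrial-poor cell of its library, and 0.329 to 1.30 times as many other UMIs. In Tind4, for example, the medians were 352 mitochondrial and 734 other UMIs in mitochondrial-rich cells, against 110.5 and 2231.5 in mitochondrial-poor cells. Tind6 was the library in which mitochondrial-rich cells also held more of the other UMIs, with a median of 587 against 452 in mitochondrial-poor cells. Just above the limit, the 200 cells between 15% and 16% had medians of 127 mitochondrial and 698 other UMIs, and just below it the 241 cells between 14% and 15% had 145 and 850.

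**Figure D1:**
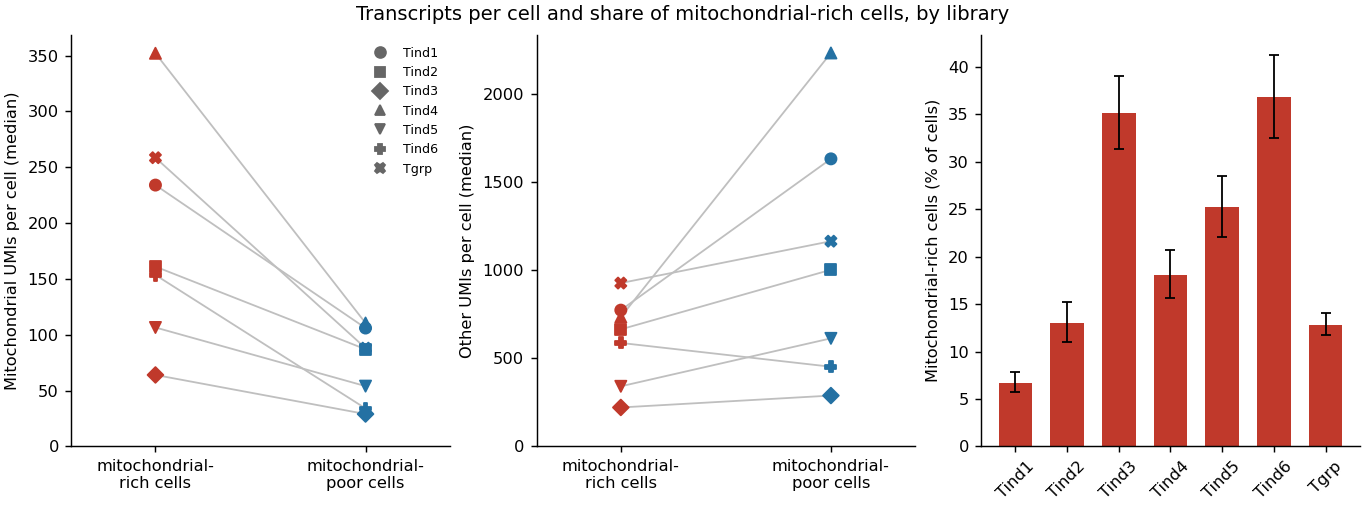
Median mitochondrial UMIs per cell (left) and median other UMIs per cell (middle) in mitochondrial-rich and mitochondrial-poor cells, with lines joining the classes of a library, and the percent of cells that are mitochondrial-rich with exact 95% binomial intervals (right). Mitochondrial UMIs are higher in the mitochondrial-rich cells of all 7 libraries, whereas other UMIs are lower in 6 and higher in Tind6 (587 against 452).

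The mitochondrial transcripts themselves kept nearly the same make-up on both sides of the limit. The large ribosomal RNA mt:lrRNA gave 68.9% ± 5.83 of the mitochondrial UMIs in mitochondrial-rich cells and 67.3% ± 5.58 in mitochondrial-poor cells (SD, n = 7 libraries). The cytochrome oxidase subunits mt:CoIII and mt:CoI followed, with 5.77% and 5.31% in mitochondrial-rich cells against 6.28% and 5.65% in mitochondrial-poor cells. mt:ATPase6, a subunit of the ATP synthase, stood at 3.51% ± 0.80 in mitochondrial-rich cells and 4.81% ± 1.35 in mitochondrial-poor cells. Of the 22 transfer RNA entries, 10 were detected in mitochondrial-rich cells, with 623 UMIs in all beside 117244 for the protein-coding genes and 281237 for the ribosomal RNAs.

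One nuclear transcript weighed on the rule itself. lncRNA:CR34335, a long noncoding RNA on the X chromosome (3545750 to 3546110, minus strand, BDGP6 assembly), gave 14.9% ± 5.91 of the non-mitochondrial UMIs of mitochondrial-rich cells, beside 22.8% ± 7.85 in mitochondrial-poor cells (SD, n = 7), the largest share of any nuclear gene named here. It was lower in the mitochondrial-rich cells of each of the 7 libraries, with a log2 fold change of -0.75 ± 0.08 (SE, adjusted p = 1.67e-05, edgeR). Its UMIs stand in the denominator of the mitochondrial share, so that a cell with less of it passes the limit more easily. When the share was computed without it, 1036 further cells passed 15% (2495 in all), and it then made up 20.3% ± 8.93 of the other UMIs in mitochondrial-rich cells and 22.2% ± 7.61 in mitochondrial-poor cells, lower in 5 of 7 libraries (log2 ratio -0.19 ± 0.32, SD; exact sign-flip permutation p = 0.234, two-sided). Of the 43 genes that the naming rule brought up and that passed the test, 17 did not pass with the classes formed in this second way, and these are ND-24, CG4860, fog, Ent2, Cph, CG30022, p53, UQCR-C2, ATPsynC, sesB, Gapdh2, Gapdh1, Tpi, Gadd45, Hsp23, Hsc70-4 and Xbp1.

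Of 2271 nuclear genes with enough counts, 171 (7.53%) differed between the classes at an adjusted p below 0.05, of which 87 (3.83%) were higher in mitochondrial-rich cells and 84 (3.7%) lower. The median log2 fold change of the called genes was 0.53 upward and -0.73 downward, beside -0.01 over all genes tested, and 102 of the 171 moved the same way in all 7 libraries. The count fell to 57 without Tgrp, to 70 without Tind4 and to 105 without Tind6. It was 41 of 667 genes when each cell was thinned to 200 UMIs and 74 of 1263 in cells with 200 to 1000 other UMIs. Of the 171, only 81 and 119 could be tested in these last settings. No called gene turned direction in any of these settings where it could be tested.

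Among called genes with the same sign in all 7 libraries and a log2 CPM of 5 or more, the 10 largest rises went to 28SrRNA-Psi:CR40596, CG42390, Nepl21, aos, ND-24, CtsK1, CG4860, fog, Ent2 and Cph. This choice fixed that each moved 1 way in all 7 libraries, so that agreement is no support for them. 28SrRNA-Psi:CR40596, a pseudogene-type copy of the 28S ribosomal RNA on the rDNA scaffold, ranged from 79.0 to 297 CPM over the 7 libraries in mitochondrial-rich cells, with a median of 122, and from 29.6 to 108 CPM, with a median of 50.7, in mitochondrial-poor cells. Its log2 fold change was 1.46 ± 0.16 (adjusted p = 2.37e-05), and since rDNA is repeated its reads cannot be assigned to 1 copy with certainty. Nepl21, a neprilysin-like protein, had 39.5, 91.7 and 421 CPM (lowest, median, highest) in mitochondrial-rich cells against 21.3, 40.6 and 131 CPM in mitochondrial-poor cells. The ranges of Nepl21 overlapped, and its log2 fold change was 1.04 ± 0.17 (adjusted p = 0.00184). CtsK1, a cathepsin K-like cysteine protease, was measured at 217, 299 and 408 CPM in mitochondrial-rich cells and at 115, 184 and 218 CPM in mitochondrial-poor cells, so that the groups met only at their edges (0.82 ± 0.13, adjusted p = 0.00142).

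The secreted EGF receptor inhibitor argos (aos), itself a target of EGFR and Ras signaling, showed 91.7, 103 and 238 CPM in mitochondrial-rich cells beside 26.7, 64.0 and 127 CPM in mitochondrial-poor cells. Its log2 fold change was 0.87 ± 0.16 (adjusted p = 0.00363). Further rises went to CG42390 (1.21 ± 0.22, adjusted p = 0.00379), to the secreted ligand fog (0.75 ± 0.16, adjusted p = 0.00862), to the nucleoside transporter Ent2 (0.73 ± 0.16, adjusted p = 0.00795), to the zinc finger factor Cph (0.73 ± 0.16, adjusted p = 0.00936) and to CG4860 (0.79 ± 0.21, adjusted p = 0.0271). The call of fog was lost without Tind4, those of Ent2 and Cph without Tgrp, and that of CG4860 without Tind3 or Tind6.

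By the same rule the 10 largest falls were those of lncRNA:CR43264, CG30022, GstD2, CG3397, Irbp18, Uhg3, CG32195, MFS3, Spg7 and p53, and called genes outside the rule had log2 fold changes down to -1.64. lncRNA:CR43264 (X, 5831898 to 5832215, minus strand) had 95, 364 and 788 CPM in mitochondrial-rich cells against 467, 958 and 1250 CPM in mitochondrial-poor cells, a log2 fold change of -1.42 ± 0.18 (adjusted p = 0.000145). It stayed lower, at -0.71 and with its call kept, when lncRNA:CR34335 was left out of the shares and totals. GstD2, a glutathione S-transferase, varied widely between libraries, with 65.8, 268 and 2351 CPM in mitochondrial-rich cells and 139, 668 and 4176 CPM in mitochondrial-poor cells. Its log2 fold change was -1.11 ± 0.18 (adjusted p = 0.00184). The C/EBP-like factor Irbp18, the partner of Xrp1, stood at 48.2, 74.9 and 164 CPM in mitochondrial-rich cells beside 109, 184 and 265 CPM in mitochondrial-poor cells (-0.95 ± 0.18, adjusted p = 0.00379).

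Spg7, a protease of the inner mitochondrial membrane, did not overlap between the classes: it had 20.4, 35.7 and 72.2 CPM in mitochondrial-rich cells, and 74.4, 83.2 and 127 CPM in mitochondrial-poor cells (-0.91 ± 0.23, adjusted p = 0.019, call lost without Tind3, Tind6 or Tgrp). The tumor suppressor p53 had 0, 39.5 and 81.7 CPM in mitochondrial-rich cells against 43.2, 91.4 and 133 CPM in mitochondrial-poor cells. The call of its log2 fold change of -0.89 ± 0.22 (adjusted p = 0.0186) was lost without Tind4 or Tgrp, and the value was -0.19 (adjusted p = 0.622) with the classes formed without lncRNA:CR34335. CG30022, CG3397, CG32195, the snoRNA host gene Uhg3 and the transporter MFS3 also fell, with log2 fold changes of -1.12, -1.09, -0.94, -0.94 and -0.94 and adjusted p between 0.00513 and 0.0172. CG30022 did not pass without Tgrp, nor did Uhg3 without Tind4 or Tgrp.

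**Figure D2:**
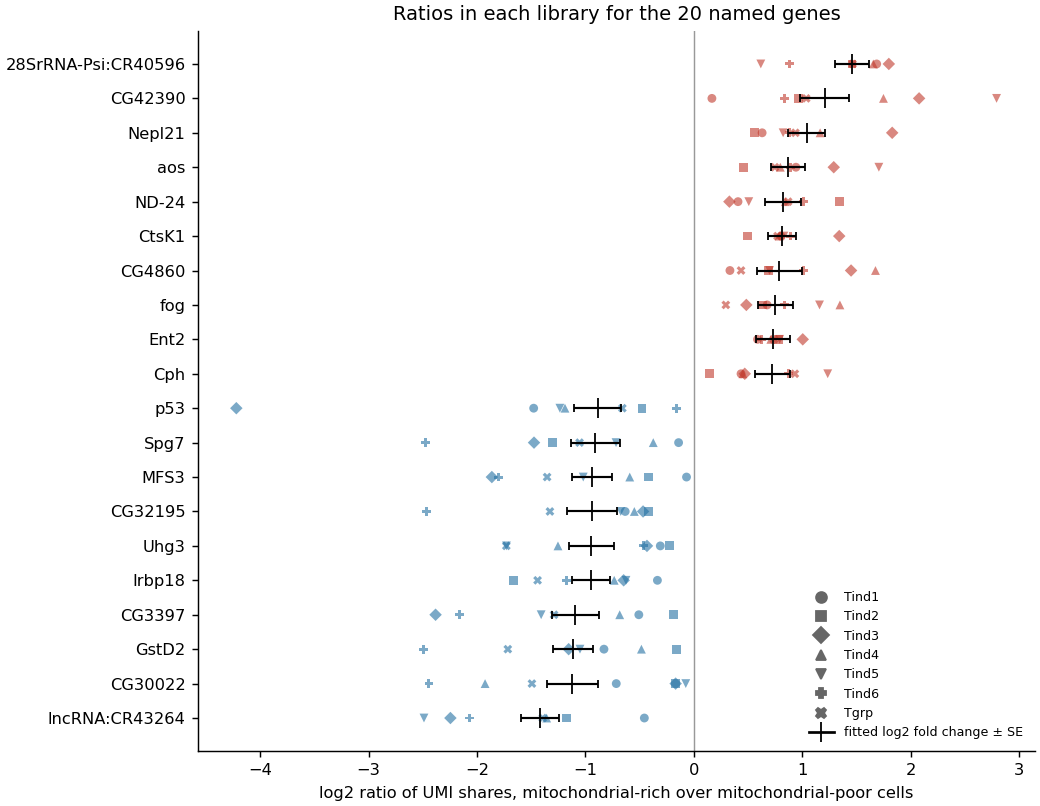
Log2 ratio of mitochondrial-rich over mitochondrial-poor cells for the 10 largest rises and 10 largest falls among called genes with 1 sign in all 7 libraries and a log2 CPM of 5 or more, with 1 point per library and the edgeR log2 fold change ± SE in black. The choice of genes fixed that their points lie on 1 side of 0, and the fitted values run from 1.46 for 28SrRNA-Psi:CR40596 to -1.42 for lncRNA:CR43264.

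Few nuclear genes of the respiratory chain passed the test, in counts read beside the 3.83% of all genes that rose and the 3.7% that fell. Of 31 tested subunits of complex I (40 listed), 1 rose and none fell, with a median log2 fold change of 0.02, and the sum over the list was higher in mitochondrial-rich cells in 3 of 7 libraries. The 1 that rose was ND-24, a subunit of the matrix arm, with 65.7, 83.9 and 154 CPM in mitochondrial-rich cells and 45.5, 59.9 and 82.7 CPM in mitochondrial-poor cells (0.83 ± 0.17, adjusted p = 0.00531), a call lost without Tgrp. For complex II 0 of 4 passed (median -0.28), for complex IV 0 of 10 (0.02) and for complex V 1 of 13 (0.11). In complex III, UQCR-C2 rose by 0.47 ± 0.14 (adjusted p = 0.0494) while UQCR-11 fell by 0.44 ± 0.12 (adjusted p = 0.0273), the other 7 of 9 did not pass, and the median was -0.05. ATPsynC, the membrane ring subunit of the ATP synthase, had 677, 913 and 1375 CPM in mitochondrial-rich cells against 457, 699 and 853 CPM in mitochondrial-poor cells (0.46 ± 0.12, adjusted p = 0.0216).

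Among other nuclear genes for mitochondria, 1 carrier rose. The adenine nucleotide translocase sesB had 593, 851 and 1409 CPM in mitochondrial-rich cells beside 422, 664 and 807 CPM in mitochondrial-poor cells, higher in 7 of 7 libraries (0.43 ± 0.12, adjusted p = 0.03), and was the 1 called gene among 5 tested carriers, whose sum was higher in 7 of 7 libraries (log2 0.09 ± 0.09, SD). No gene passed, at 5% after adjustment in edgeR, among 26 tested proteins of the mitochondrial ribosome (median 0.05), 5 for mitochondrial DNA and RNA (-0.19), 9 for import (-0.05), 7 chaperones and proteases (-0.24, sum higher in 1 of 7 libraries), 8 for dynamics and mitophagy (-0.23, sum higher in 1 of 7) and 14 enzymes of the TCA cycle (0.01). Of the 82 genes of complexes II and IV and of these 6 groups, 9 had an unadjusted p below 0.05, and 0 passed in DESeq2. Over all genes tested, 22.7% had an unadjusted p below 0.05 in edgeR. The calls of ATPsynC and sesB were both lost without Tind3, Tind4, Tind6 or Tgrp, that of UQCR-C2 without any library but Tind5, and that of UQCR-11 without Tind1, Tind2, Tind4 or Tgrp. The median of complex I was -0.04 without lncRNA:CR34335 and -0.29 over the 4 subunits testable in thinned cells.

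**Figure D3:**
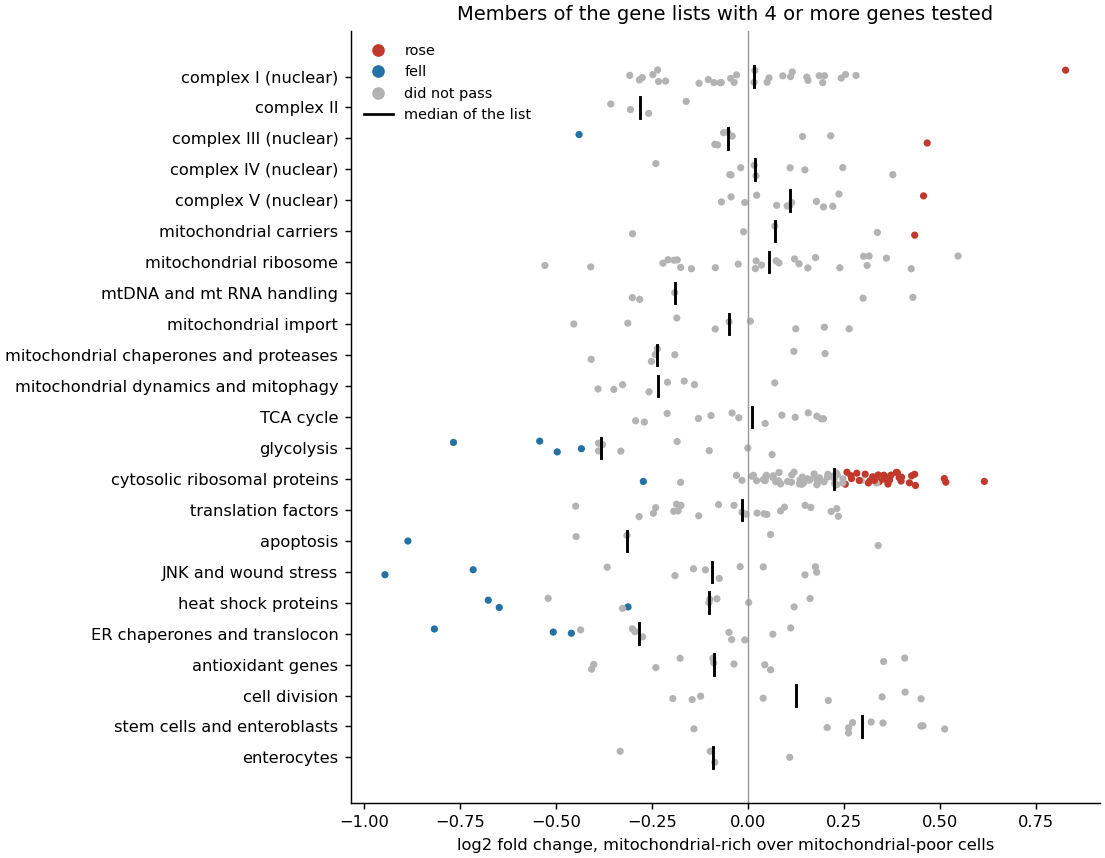
Log2 fold change of mitochondrial-rich over mitochondrial-poor cells for each tested member of the lists with 4 or more tested genes, in red where it rose, blue where it fell and grey where it did not pass, with a black bar at the list's median. Cytosolic ribosomal proteins lie mostly right of 0 (median 0.22) and glycolytic genes mostly left (median -0.38), while complexes I and IV centre near 0.

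Transcripts for the cytosolic ribosome were higher in mitochondrial-rich cells. Of 81 tested ribosomal protein genes (88 listed), 32 rose and 1 fell, beside 3.83% of all genes that rose, and 77 had a log2 fold change above 0 with a median of 0.22. Together they took 258893, 337296 and 411022 CPM (lowest, median, highest) in mitochondrial-rich cells and 227732, 268129 and 378291 CPM in mitochondrial-poor cells, and were higher in 7 of 7 libraries, by 0.21 ± 0.14 on the log2 scale (SD). RpL37A, a protein of the large subunit, separated the classes completely, with 4279, 4452 and 6201 CPM in mitochondrial-rich cells against 2506, 3169 and 3865 CPM in mitochondrial-poor cells (0.62 ± 0.08, adjusted p = 0.000164). RpLP1, an acidic stalk protein, rose by 0.42 ± 0.07 (adjusted p = 0.00343), RpS26 by 0.40 ± 0.07 (adjusted p = 0.00343) and RpS14a by 0.51 ± 0.09 (adjusted p = 0.0034), the last of which has a near-identical neighbour, RpS14b, so that the split of reads between the pair is uncertain.

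The member that fell was RpL38, with 2458, 5214 and 6851 CPM in mitochondrial-rich cells beside 3584, 6390 and 9096 CPM in mitochondrial-poor cells (-0.27 ± 0.08, adjusted p = 0.035, noted after its values were seen), a call lost without Tind1, Tind2, Tind3, Tind4 or Tgrp and, at -0.07, without lncRNA:CR34335. Translation factors, which act with ribosomes but are not part of them, did not share the rise: 0 of 23 passed in edgeR or DESeq2. An unadjusted p below 0.05 was found for 4 of them, beside 22.7% of all genes. The median of these factors was -0.02, or 0.08 without TMM. The ribosomal count was 16 without Tind4 and 17 without Tind6 or without Tgrp, 17 in thinned cells, 14 in cells with 200 to 1000 other UMIs, 3 of 86 with no filter on low counts, 51 without TMM and 40 of 82 without lncRNA:CR34335. The list's median stayed above 0 in each of these. In the same order of settings, 36 of 2037, 51 of 3191, 28 of 2047, 22 of 667, 35 of 1263, 34 of 11821, 161 of 2271 and 68 of 3147 genes rose in all. Long noncoding RNAs, of which 970 had a UMI and 19 were tested, gave 1 rise and 5 falls with a median of -0.09. These counts stand beside 3.83% of all genes that rose and 3.7% that fell. Among the falls was lncRNA:CR34335, whose UMIs are in the denominator of the share. The falls were 3 without Tind2, 2 without Tgrp and 3 without lncRNA:CR34335.

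Glycolysis went the other way. Of 12 tested enzymes (14 listed), 4 fell and none rose, beside 3.7% of all genes that fell, with a median of -0.38. The sum over the list was 5993, 8188 and 16619 CPM in mitochondrial-rich cells against 8757, 11639 and 17469 CPM in mitochondrial-poor cells. It was lower in 7 of 7 libraries, by unequal amounts (log2 -0.38 ± 0.37, SD). The log2 ratio was -0.92 in Tind6, -0.75 in Tind3, -0.62 in Tgrp and -0.22 in Tind4. In Tind1, Tind2 and Tind5 it was near 0, at -0.07, -0.03 and -0.07. Gapdh2, a glyceraldehyde-3-phosphate dehydrogenase, had 395, 935 and 1127 CPM in mitochondrial-rich cells and 1035, 1270 and 2086 CPM in mitochondrial-poor cells (-0.77 ± 0.14, adjusted p = 0.00379). Enolase (Eno) stood at 675, 964 and 1569 CPM in mitochondrial-rich cells beside 1120, 1311 and 2107 CPM in mitochondrial-poor cells (-0.54 ± 0.11, adjusted p = 0.00544). Gapdh1 fell by 0.50 ± 0.12 (adjusted p = 0.0125) and the triose phosphate isomerase Tpi by 0.43 ± 0.13 (adjusted p = 0.0496), and the lactate dehydrogenase Ldh did not pass, at -0.39 ± 0.12 (adjusted p = 0.054). The count of falls was 2 without Tind3, 0 with a limit of 10% and 1 without lncRNA:CR34335, where Gapdh2 stood at -0.52 (adjusted p = 0.054).

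No gene of the stress and death lists rose in mitochondrial-rich cells, and several fell, beside 3.7% of all genes that fell. Of 5 tested apoptosis genes, p53 fell and the others did not pass, with hid, an inducer of apoptosis, at -0.45 (adjusted p = 0.191), and reaper (rpr), another inducer, was too low to test with 15 UMIs in mitochondrial-rich and 262 in mitochondrial-poor cells. Among 12 genes of JNK and wound stress, Irbp18 and the stress sensor Gadd45 fell, Gadd45 with 177, 227 and 435 CPM in mitochondrial-rich cells against 261, 356 and 1174 CPM in mitochondrial-poor cells (-0.72 ± 0.14, adjusted p = 0.00456). Of 11 tested heat shock genes, whose median was -0.10, 8 did not pass and Hsp23, Hsp26 and Hsc70-4 fell, by 0.68 ± 0.15, 0.65 ± 0.15 and 0.31 ± 0.07 (adjusted p = 0.0109, 0.0141 and 0.0141). The list's sum was lower in 6 libraries and higher in Tind5, by 0.33 on the log2 scale.

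Among 12 tested genes of endoplasmic reticulum chaperones and translocon, the lectin chaperone calnexin Cnx99A, the unfolded protein response factor Xbp1 and the Hsp90-type chaperone Gp93 fell, by 0.82 ± 0.20, 0.46 ± 0.12 and 0.51 ± 0.15 (adjusted p = 0.0161, 0.0264 and 0.0494), and the list's sum was lower in 7 of 7 libraries (log2 -0.24 ± 0.20, SD). Of 11 antioxidant genes and 8 cell division genes 0 passed in edgeR or DESeq2, with medians of -0.09 and 0.12. An unadjusted p below 0.05 was found for 4 and 2 of them, beside 22.7% of all genes. The counts in the stress lists were small and moved with the libraries: the heat shock falls were 1 without Tind3 and 0 without Tgrp, and those of the endoplasmic reticulum 0 without Tind3 or Tind4, and 1 without Tind6 or Tgrp. Without lncRNA:CR34335 the counts were 1 for heat shock, 2 for the endoplasmic reticulum, 1 for JNK and wound stress and 0 for apoptosis.

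The classes were checked against markers of midgut and neighbouring cell types. Stem cell and enteroblast markers were present in both classes, with 10 of 12 tested and 0 that passed in edgeR or DESeq2. An unadjusted p below 0.05 was found for 2 of the 10, beside 22.7% of all genes. Of the 10, 9 lay above 0 with a median of 0.30. Delta, the Notch ligand of stem cells, had 51.3, 149 and 1164 CPM in mitochondrial-rich cells beside 85.4, 96.0 and 528 CPM in mitochondrial-poor cells (0.51 ± 0.18, adjusted p = 0.0808), and escargot (esg), the transcription factor of progenitors, 158, 312 and 381 CPM in mitochondrial-rich cells beside 158, 249 and 372 CPM in mitochondrial-poor cells (0.21 ± 0.14, adjusted p = 0.432). The summed level of this list ranged from 1543 to 2485 CPM in mitochondrial-rich and from 1126 to 2171 CPM in mitochondrial-poor cells. In thinned cells the median was -0.08, over only 3 testable genes. With a limit of 10%, with a limit of 20% and without lncRNA:CR34335, 1 member rose, of 10, 10 and 11 tested. Over all genes, 88 of 3960, 55 of 2284 and 68 of 3147 rose there. In cells with 200 to 1000 other UMIs 0 of 4 members rose. Between mitochondrial-poor cells at 10 to 15% and those up to 10%, all 10 tested lay above 0 and 1 rose (2.23% of all genes rose there). The reporter Cd8a-EGFP was detected in both classes, with 48.2, 105 and 280 CPM in mitochondrial-rich and 61.5, 140 and 289 CPM in mitochondrial-poor cells (-0.13 ± 0.19, adjusted p = 0.74).

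Of 14 enterocyte markers 4 could be tested and 0 passed, also at an unadjusted p below 0.05. With no filter on low counts 3 of 13 fell, beside 159 of 11821 genes in all. The median was -1.10 beside -0.23 over all genes. The digestive enzymes betaTry, epsilonTry and Amy-p were at 0 UMIs in mitochondrial-rich cells beside 38, 11 and 4 in the deeper mitochondrial-poor sums. For epsilonTry and Amy-p this is too few to show a difference. In the same order, Jon65Aiii had 5 and 236 UMIs, alphaTry 2 and 161, Jon65Aiv 0 and 79, and Mal-A1 2 and 14. Myo31DF had 231 and 1688, nub 30 and 255, mesh 272 and 2190, Tsp2A 355 and 3276, and Ssk 1102 and 11737. These marker UMIs, here and below, are summed over 7 libraries and not scaled to depth. The mitochondrial-poor sums were deeper in each library, with 4514842 against 167158 UMIs in Tind1 and 208378 against 149050 in Tind6. A lower count in mitochondrial-rich cells is thus not by itself a lower level. Of 12 enteroendocrine markers 1 could be tested and did not pass. With no filter 2 of 12 fell, beside the same 159 of 11821 genes, with a median of -0.01 beside -0.23 over all genes. The neuropeptide Orcokinin had 8 UMIs in mitochondrial-rich and 656 in mitochondrial-poor cells, and CCHa2 had 0 and 91. In the same order, AstA had 46 and 340, Tk 44 and 241, 7B2 19 and 79, and NPF 6 and 1. ITP had 188 and 1635, pros 8 and 61, CCHa1 5 and 37, amon 3 and 21, Dh31 2 and 9, and Mip 2 and 3. The list's sum was higher in mitochondrial-rich cells in 2 of 7 libraries. Of 13 muscle markers 2 could be tested and 1 rose, beside 3.83% of all genes. The tropomyosin Tm1 had 503, 711 and 943 CPM in mitochondrial-rich cells against 400, 465 and 620 CPM in mitochondrial-poor cells (0.51 ± 0.11, adjusted p = 0.0107, call lost without Tind4 or Tgrp). Tm1 gave 1034 of the muscle list's 1223 UMIs in mitochondrial-rich cells. The other tested marker, how, did not pass, with 175 UMIs in mitochondrial-rich and 1641 in mitochondrial-poor cells. The sarcomere genes Mhc, Mlc1, Act57B, up, wupA and Tm2 were at 0 in mitochondrial-rich cells beside 20, 1, 2, 2, 23 and 6 in mitochondrial-poor cells. In mitochondrial-rich cells bt, Mlp60A, sls, TpnC73F and Mlc2 had 6, 3, 2, 2 and 1, beside 52, 25, 39, 13 and 7. The sarcomere genes were too low to test. The hemocyte genes Hml, NimC1, Pxn, eater and He were at 0 in mitochondrial-rich cells but had only 6, 1, 5, 0 and 1 UMIs in the deeper mitochondrial-poor sums, too few to show a difference, and crq, srp, Col4a1 and vkg had 144, 5, 4 and 1 in mitochondrial-rich cells. Further, 0 of the markers of trachea, Malpighian tubule and fat body had enough counts to test.

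The share was next followed inside each class, with cells that the first comparison had put on the same side. Among mitochondrial-rich cells, the 400 cells over 25% were compared with the 1059 cells between 15% and 25%, and 19 of 888 genes passed (2.14%), 10 higher (1.13%) and 9 lower (1.01%). Among mitochondrial-poor cells, those between 10% and 15% were compared with those up to 10%, and 172 of 3089 genes passed (5.57%), 69 higher (2.23%) and 103 lower (3.33%). These comparisons have no cell in common but use the same 7 libraries, and 8 genes passed in both. The first count went to 0 without Tind4 (72 genes at an unadjusted p below 0.05), 2 without Tind6, 7 without Tgrp, 8 without Tind1 and 12 without Tind2, the second to 23 without Tgrp and 85 without Tind4, and without lncRNA:CR34335 they were 9 and 99.

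**Figure D4:**
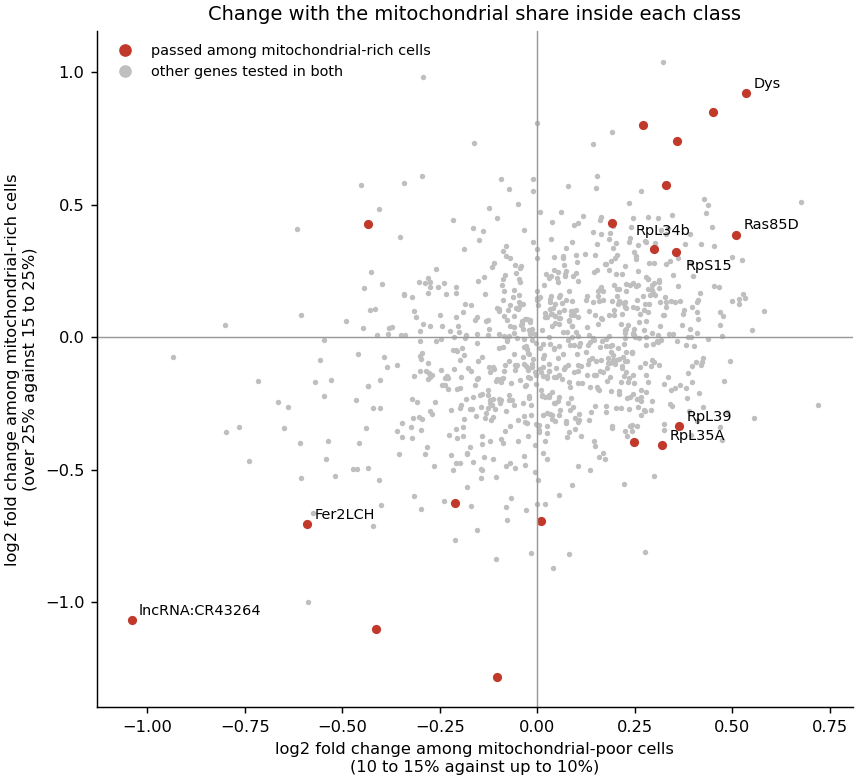
Log2 fold change with a higher mitochondrial share among mitochondrial-rich cells (vertical axis, over 25% against 15 to 25%) and among mitochondrial-poor cells (horizontal axis, 10 to 15% against up to 10%), for the 888 genes tested in both. The 19 genes that passed among mitochondrial-rich cells are red and the 8 that passed in both are named, with lncRNA:CR43264 at -1.07 and -1.04 and Dys at 0.92 and 0.54.

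Of the 8 shared genes, 6 moved the same way on both sides of the limit. They are named because they passed in both comparisons and, except for lncRNA:CR43264, were chosen after their values were seen. lncRNA:CR43264 fell by 1.07 ± 0.28 with the share among mitochondrial-rich cells (adjusted p = 0.0391) and by 1.04 ± 0.16 among mitochondrial-poor cells (adjusted p = 0.00127). Fer2LCH, the light chain of the iron store ferritin, fell by 0.71 ± 0.15 among mitochondrial-rich and by 0.59 ± 0.16 among mitochondrial-poor cells (adjusted p = 0.0167 and 0.0329). Dys, the fly dystrophin, which ties the cytoskeleton to the extracellular matrix, rose by 0.92 ± 0.20 and 0.54 ± 0.13 (adjusted p = 0.0189 and 0.0212). Ras85D, the fly Ras, rose by 0.39 ± 0.10 and 0.51 ± 0.15 (adjusted p = 0.0391 and 0.0467), and since the counts do not separate it from the UAS-RasV12 transgene, the level is that of both. These calls moved with the libraries: that of Dys was lost without Tind4 among mitochondrial-rich cells and without Tind4 or Tgrp among mitochondrial-poor cells, that of Fer2LCH without Tind4 or Tind6 in the first and without Tind3, Tind4, Tind6 or Tgrp in the second, and that of lncRNA:CR43264 without Tind1, Tind2, Tind4 or Tgrp in the first. The calls of Ras85D were lost without any library but Tind2 among mitochondrial-rich cells, and without any but Tind2 and Tind6 among mitochondrial-poor cells. Without lncRNA:CR34335, Dys passed in both (adjusted p = 0.0448 and 0.0196), Ras85D among mitochondrial-poor cells (adjusted p = 0.104 and 0.0196), and Fer2LCH (0.199 and 0.14) and lncRNA:CR43264 (0.0568 and 0.12) in neither.

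A few ribosomal proteins passed within mitochondrial-rich cells. RpS15 and RpL34b rose with the share in both classes, whereas RpL35A and RpL39 fell among mitochondrial-rich cells, by 0.41 ± 0.11 and 0.34 ± 0.09 (adjusted p = 0.049 and 0.0466), and rose among mitochondrial-poor cells, by 0.32 ± 0.09 and 0.36 ± 0.09 (adjusted p = 0.0421 and 0.021). The falls of RpL35A and RpL39 did not pass with any of the 7 libraries left out, nor without lncRNA:CR34335, and the rises of RpS15 and RpL34b there were lost without any library but Tind2, that of RpL34b also without lncRNA:CR34335 (adjusted p = 0.0568). Among mitochondrial-poor cells the call of RpL34b was lost without Tind2, Tind4, Tind5 or Tgrp, that of RpL35A without Tind2, Tind4, Tind5, Tind6 or Tgrp, and those of RpS15 and RpL39 without Tind4 or Tgrp. As a list, 40 of 82 rose within mitochondrial-poor cells (2.23% of all genes rose there) and 0 fell, with a median of 0.29. Within mitochondrial-rich cells 2 of 81 rose and 4 fell, with a median of -0.06 beside -0.03 over all genes. Glycolysis had medians of -0.26 within mitochondrial-rich and -0.24 within mitochondrial-poor cells, with 0 of 12 that passed in either. An unadjusted p below 0.05 was found for 3 and 2 of the 12, beside 12.5% and 20.3% of all genes.

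Dys and Ras85D, chosen from the comparisons inside the classes, passed between the classes as well. That comparison uses the same cells and libraries, so it is no independent support. Dys stood at 250, 394 and 715 CPM in mitochondrial-rich cells beside 155, 266 and 292 CPM in mitochondrial-poor cells, higher in 6 of 7 libraries (0.77 ± 0.15, adjusted p = 0.00468). Ras85D had 2515, 3307 and 4140 CPM in mitochondrial-rich cells against 1773, 2489 and 3749 CPM in mitochondrial-poor cells, also higher in 6 of 7 (0.40 ± 0.12, adjusted p = 0.0489). Both genes overlapped between the classes across libraries. Dys passed with each library left out (adjusted p up to 0.0302) and without lncRNA:CR34335, whereas Ras85D did not pass without Tind3, Tind4, Tind6 or Tgrp, nor without lncRNA:CR34335 (0.35, adjusted p = 0.0639). Genes with related roles that were looked up after seeing Dys were the nesprin Msp300, which anchors nuclei to actin (0.56 ± 0.11, adjusted p = 0.00513), and the integrin subunit mew (0.77 ± 0.14, adjusted p = 0.00379), both of which also passed with each library left out. They were picked by name and belong to no list used here, so no share of such genes that passed can be given. Nothing follows from them for genes of such roles as a group.

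When cells were sorted into 6 ranges of mitochondrial share, levels differed between ranges on both sides of the limit. Without lncRNA:CR34335 in the total, cytosolic ribosomal proteins took 276301 ± 50328 CPM (not scaled by TMM) in cells up to 5%, 365558 ± 36994 at 10 to 15% and 343037 ± 30910 over 30% (mean ± SD of 7 libraries). The glycolytic genes took 15138 ± 3375, 11794 ± 3509 and 8872 ± 3080 in the same ranges, and the complex I genes 4842 ± 1593, 4988 ± 701 and 4476 ± 1347. Thus the ribosomal level differed most among the lowest ranges, the glycolytic level was lower in the higher ranges, and complex I varied less between ranges than between libraries. Dys had 174 ± 55.0, 354 ± 91.4 and 902 ± 480 CPM, and the last range rests on as few as 11 cells in a library. These ranges were formed from the share and were not tested.

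**Figure D5:**
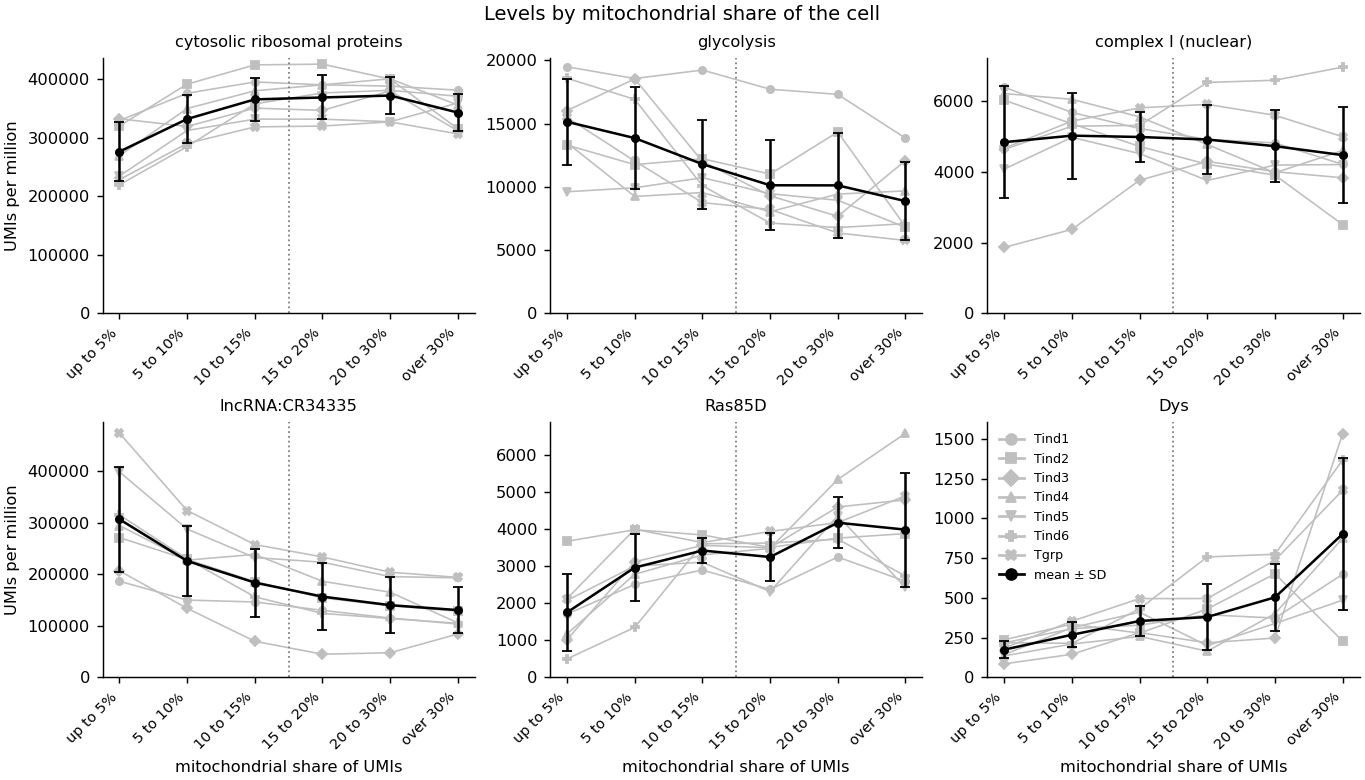
Unscaled CPM of non-mitochondrial UMIs in 6 ranges of mitochondrial share, for 3 gene lists and 3 genes, with each library in grey, the mean ± SD of 7 libraries in black and the 15% limit as a dotted line. The total leaves out lncRNA:CR34335 except in its own panel, where the mean is 306703 in cells up to 5% and 130475 over 30%.

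The variety of transcripts was compared at equal depth, since the classes differ in UMIs per cell. With 200 non-mitochondrial UMIs drawn from each cell, mitochondrial-rich cells showed 135 ± 9.26 different genes and mitochondrial-poor cells 126 ± 9.37 (SD, n = 7), a difference of 9.32 ± 5.60 that was positive in 7 of 7 libraries (exact sign-flip permutation p = 0.0156, two-sided, the smallest that 7 libraries allow). Most of the cells too shallow for this were in Tind3, where 89 mitochondrial-rich and 112 mitochondrial-poor cells were left out. The difference went with the abundance of lncRNA:CR34335: with its UMIs removed before the draw it was -2.78 ± 4.16, positive in 1 of 7 libraries (exact sign-flip permutation p = 0.125). Before thinning, the median number of detected genes was lower in mitochondrial-rich cells in 6 libraries, with 310 against 787 in mitochondrial-poor cells in Tind4, and higher in Tind6, with 339.5 against 253.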

How the data were processed

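The libraries (10x Genomics, chemistry 3.1) numbered 7, 6 of individual tumors and 1 of 6 pooled tumors. The authors deposited filtered matrices of raw UMI counts per gene and cell, made with Cell Ranger 6.0.1 on release 6.42 of the Drosophila genome, per the submitters' notes and the study's methods. The files give FlyBase identifiers, of which 17556 of 17619 were matched to symbols, and 37 were mitochondrial. Doublets were not called, and cells with over 2000 genes were left out. Counts were summed per library and class without mitochondrial genes, and tested with edgeR 4.0.16 (R 4.3.3; filterByExpr, TMM, quasi-likelihood) with the library as a block, since both classes come from the same tumors, and Benjamini-Hochberg adjustment over all genes tested. On simulated data, 97.5% of 200 genes changed by 1 log2 unit among 2271 were recovered between the classes. The text names the 10 largest changes in each direction among called genes of the same sign in 7 libraries and a log2 CPM of 5 or more, and up to 4 genes per list. The members, lists and limits were chosen with earlier results of these data known. Ranges, thinning (seed 1) and exact tests used Python 3.11.15, numpy 2.4.6, pandas 2.3.3 and scipy 1.17.1. Alternatives were DESeq2 1.42.0, no block, no TMM, no filter on low counts, other limits, equal depth, all cells, libraries left out and, added after seeing the data, the shares without lncRNA:CR34335 and without cells over 50%.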

Additional observations from a re-analysis of the deposited data

Results flagged for a closer look

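In the 6 individual tumors, 155 log2 ratios of mitochondrial-rich over mitochondrial-poor cells (genes, list sums) were examined for a tumor whose value lay far from the other 5. Such a gap is found by chance in about 1 of 20 groups, and 13 were found. In Tind3 the log2 ratio of p53 was -4.22, with the other tumors between -1.48 and -0.16, since p53 had no UMI in the mitochondrial-rich cells of that tumor. Tind3 also stood apart for the chaperone Hsc70-3 (-1.42, others -0.47 to 0.10), for the sum of endoplasmic reticulum chaperones and translocon (-0.63, others -0.24 to -0.06), for the JNK kinase hep (-1.62, others -0.52 to 0.12) and for SdhD of complex II (0.73, others -0.53 to -0.11). In Tind5 the ATP synthase subunit blw was at -0.41 (others 0.20 to 0.35), UQCR-C2 at -0.33 (others 0.43 to 0.75), the import receptor Tom20 at -2.71 (others -0.43 to 0.09) and Myo31DF at -1.27 (others 0.01 to 0.67). In Tind6 the ratio was -6.38 for lncRNA:CR44138 (others -1.23 to 0.77), -2.47 for CG32195 (others -0.67 to -0.42) and 1.26 for COX6B of complex IV (others 0.05 to 0.38). In Tind2, lncRNA:CR44717 was at 0.30, with the others between -1.63 and -1.01.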

How the results depend on the processing

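The library block decided the calls. With no replicate block, 0 genes passed in edgeR in each of the 3 comparisons, with 171 at an unadjusted p below 0.05 between the classes, 28 within mitochondrial-rich and 161 within mitochondrial-poor cells. Between the classes the 171 called genes (50.9% of them higher) became 139 with DESeq2 (87 higher and 52 lower), 212 without TMM (161 and 51, with the median of all genes at 0.10), 193 with no filter on low counts (34 and 159, median of all genes -0.23) and 219 with a limit of 10% (88 and 131). Thinning to 200 UMIs per cell gave 41 genes and keeping cells with 200 to 1000 other UMIs gave 74, where fewer genes could be tested. Leaving out 1 library gave 57 to 198 genes between the classes, 0 to 20 within mitochondrial-rich cells and 23 to 178 within mitochondrial-poor cells. Within mitochondrial-rich cells DESeq2 gave 17 and equal depth 15, and within mitochondrial-poor cells 174 and 28. Without lncRNA:CR34335 the counts were 118, 9 and 99, and 92 of the 118 were among the 171. The share of mitochondrial-rich cells per individual tumor was 44.9% with a limit of 10%. The difference in genes at equal depth was -2.78 without lncRNA:CR34335 and 7.91 to 10.6 with 1 library left out. No called gene changed direction under an alternative in which it could be tested. Of the 171, 81 could be tested in thinned cells and 119 in cells with 200 to 1000 other UMIs. Between cells over 20% and cells up to 10%, 116 could be tested. Among 43 named genes that passed, 616 of the values under alternatives also passed and 190 did not. With barcodes shared by Tind4 and Tind5 kept, 184 genes passed, and without cells over 50% 148. Causes were not tested. Mitochondrial-rich sums of Tind2, Tind3 and Tind5 were the shallowest, which limits what can be detected for low genes.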

Other observations

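The genes of this paragraph, 3 metallothioneins and a ferritin chain, were chosen after their values within mitochondrial-poor cells were seen. Between cells at 10 to 15% and cells up to 10%, the metallothioneins MtnD, MtnE and MtnA, small cysteine-rich proteins that bind copper and other metals, fell by 1.80 ± 0.31, 1.72 ± 0.35 and 0.80 ± 0.19 on the log2 scale (SE, adjusted p = 0.00269, 0.00709 and 0.0207, edgeR). Fer1HCH, the heavy chain of ferritin, fell by 0.61 ± 0.16 there (adjusted p = 0.036). MtnD passed with each library left out, whereas MtnE did not without Tgrp, MtnA without Tind4 or Tgrp, and Fer1HCH without Tind3, Tind4, Tind6 or Tgrp. Without lncRNA:CR34335, MtnD and MtnE passed at -1.06 and -1.31, and MtnA and Fer1HCH did not. Between the classes themselves these genes did not pass: MtnE was at -0.99 ± 0.53 (adjusted p = 0.278), MtnA at -0.08 ± 0.31 (adjusted p = 0.934) and Fer1HCH at -0.57 ± 0.18 (adjusted p = 0.0649), while MtnD was too low to test. Over the ranges of share, MtnE stood at 0 to 357 CPM in 6 libraries and at 1664 CPM in Tind2 in cells up to 5%, and had no UMI in the cells over 30%.

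The aquaporin Prip rose with the share among mitochondrial-poor cells (0.97 ± 0.17, adjusted p = 0.00393) and between the classes (0.80 ± 0.19, adjusted p = 0.0147), the first call being lost without Tgrp and the second without Tind3 and without lncRNA:CR34335. Notch (N), the receptor of Delta, rose by 0.80 ± 0.18 among mitochondrial-rich cells (adjusted p = 0.0189) and not detectably between the classes (0.26 ± 0.14, adjusted p = 0.275). In the same comparison CG43349 and CG6770 fell by 1.28 ± 0.30 and 1.10 ± 0.27 (adjusted p = 0.0252 and 0.0351), beside 0.03 ± 0.28 and -0.17 ± 0.15 between the classes. The calls of N, CG43349 and CG6770 were each lost without Tind4, without Tind6 and without lncRNA:CR34335, that of CG43349 also without Tind1, and that of CG6770 without Tind2 or Tgrp. Over the 888 genes tested within both classes, the log2 fold changes had a Spearman rho of 0.27 and a Pearson r of 0.28 across genes, which share the 7 libraries and are not independent. Of the 19 genes called within mitochondrial-rich cells 14 had the same sign within mitochondrial-poor cells, and of the 85 called within mitochondrial-poor cells 58 had the same sign within mitochondrial-rich cells, beside 57.4% of all 888 genes.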
